A study of Danio rerio with 32 samples.

Results

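The comparison described here sets the livers of 8 gys2 knockout zebrafish against those of 8 wild-type zebrafish, which are 16 of the 32 libraries of the series; the other 16 are skeletal muscle of the same genotypes. All fish were adult females of the AB strain, and genotype was the only labelled difference between the liver groups. Transcripts were counted at their 3′ ends by Lasy-Seq, in which each sample receives its index at reverse transcription and the products are then pooled. The sources used here do not give the place of the gys2 lesion, the founders of the knockout line, or any batch or date. Because the livers were sequenced whole, fewer cells of a type and less RNA per cell cannot be told apart. Genes were tested if they had at least 10 counts in 8 or more of the 16 livers, which left 11118 of the 31658 genes in the table. Knockout livers were sequenced deeper, so thinned counts, drawn at random to the depth of the shallowest liver, are shown beside full counts.

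Glycogen synthase joins glucose units from UDP-glucose into glycogen, and vertebrates have a liver enzyme, made from gys2, and a second enzyme, made from gys1, that serves muscle and other tissues. The liver stores glucose after feeding and releases it in fasting, and glucose that is not stored can be passed to glycolysis, the pentose phosphate pathway and fatty acid synthesis. In egg-laying female fish the liver also makes the yolk precursor vitellogenin in large amounts, so a few transcripts can take up much of a library.

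On full counts 7 genes rose in knockout liver and none fell at an adjusted p under 0.05 (edgeR quasi-likelihood test with Benjamini-Hochberg adjustment; 0.063% of the 11118 genes tested). With no lower call at that threshold, 941 genes were lower and 1277 higher at an unadjusted p under 0.05, and DESeq2 called 139 genes lower and 174 higher. The 7 were tm9sf4, rmdn1, ENSDARG00000092578 (its Ensembl identifier; the table lists it by a clone name), si:ch1073-416d2.3, cldn2, ppdpfb and rgrb. On thinned counts 7 genes again rose and none fell (0.063%), and 6 of them were called on full counts too: cldn2 no longer passed (adjusted p = 0.0527) and NC_002333.13 newly passed (adjusted p = 0.0323). Transcripts of gys2 were lower in knockout liver, at 1.09 CPM against 10.2 CPM (CPM is the usual count scaled to library size, here after TMM), and no gene of glycogen, glucose or lipid metabolism was called.

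Depth separated the genotypes completely. Wild-type livers held 1514099 to 2366219 counts and knockout livers 2562717 to 15351773, so that the shallowest knockout liver was deeper than the deepest wild-type liver (exact two-sided permutation test, p = 0.000155, the least that 8 against 8 libraries allow). On full counts a knockout liver had a mean of 15559 ± 1844 genes with at least 5 counts and a wild-type liver 12944 ± 1514 (SD, n = 8 each; exact permutation p = 0.00855). At a matched depth of 1514099 counts the order was the opposite. The expected number of such genes was then 10079 ± 702 in knockout and 12037 ± 887 in wild type (SD, n = 8 each; exact permutation p = 0.000311), and only 1 knockout liver reached the wild-type range. The 100 most abundant genes, the main measure, took 67.1% ± 6.61 of counts in knockout and 60.9% ± 3.91 in wild-type livers (SD, n = 8 each, exact permutation p = 0.0417). With 1 liver left out, 11 of 16 such tests had an exact permutation p over 0.05. The 1000 most abundant genes, an alternative measure, took 88.1% ± 2.27 of counts in knockout and 82.8% ± 2.91 in wild-type livers (SD, n = 8 each; exact permutation p = 0.00140). For the 10 most abundant the exact permutation p was 0.0642. The TMM scaling factors, which offset such a difference in makeup, were 0.648 to 1.02 in knockout and 0.987 to 1.71 in wild-type livers.

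**Figure D1:**
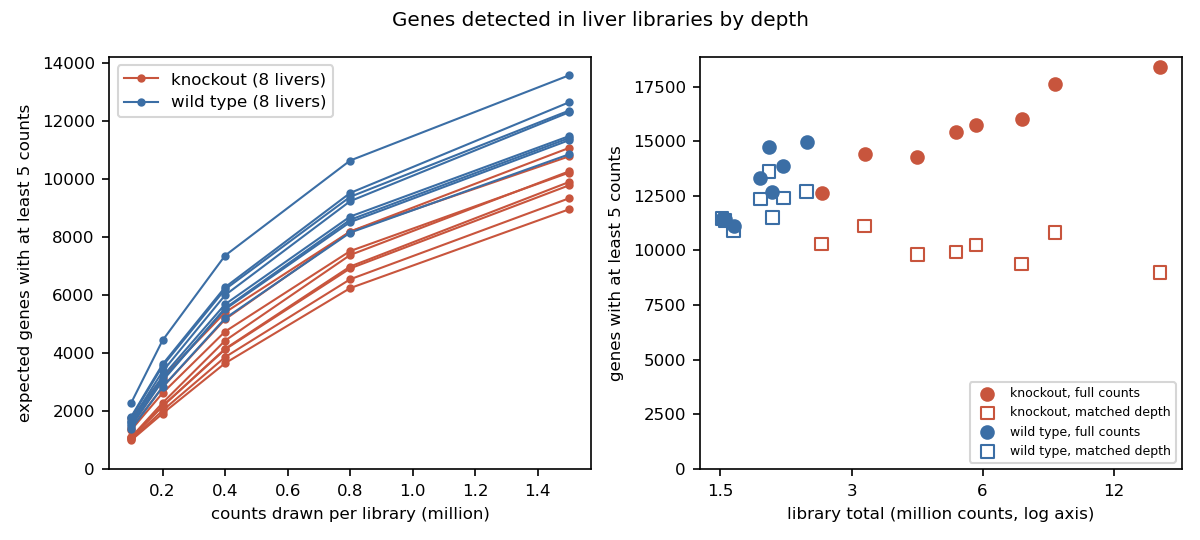
Left, the expected number of genes with at least 5 counts against the number of counts drawn, 1 line per liver. Right, the same number on full counts (filled circles) and at the matched depth of 1514099 counts (open squares) against the library total on a log axis. On full counts 5 of 8 knockout livers lie above every wild-type liver and, at the matched depth, 7 of 8 lie below every wild-type liver.

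The targeted gene was counted at low levels in every liver. Full counts of gys2 were 6 to 37 in wild-type and 1 to 19 in knockout livers, and thinned counts were 5 to 29, with a median of 17, against 0 to 2, with a median of 1. The groups did not overlap on thinned counts, whereas they did on full counts, where the 19 counts came from the knockout library of 15351773 counts. Knockout livers 1, 4 and 7, with 8, 6 and 8 counts, also reached the wild-type range. In CPM the groups overlapped too, with knockout liver 7 at 2.48 CPM and wild-type liver 4 at 2.16 CPM. The CPM values were 10.2 ± 6.28 in wild-type and 1.09 ± 0.762 in knockout livers (SD, n = 8 each). Mean log2(CPM + 0.5) differed by -2.61 between knockout and wild type (exact permutation p = 0.000311), and mean log2(thinned count + 0.5) by -3.44 (exact permutation p = 0.000155, the smallest possible). The gene did not pass the filter on low counts and has no fitted change. A tag outside the altered part of the gene reports its transcript level only, so these values do not check the lesion itself.

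Transcripts of gys1 were counted in all 16 livers too. Thinned counts of gys1 were 65 to 106 in wild-type livers and 24 to 59 in knockout livers, with no overlap. On the TMM scale gys1 averaged 45.6 ± 6.00 CPM over wild-type livers and 33.96 ± 4.37 CPM over knockout livers (SD, n = 8 each), with 1 of 8 knockout livers inside the wild-type range. The size of the difference depended on the scale: the mean log2 level differed by -0.42 on log2(CPM + 0.5) (exact permutation p = 0.000466) and by -1.08 on thinned counts, which carry no TMM factor (exact permutation p = 0.000155). Scaled to library totals, likewise without TMM, the median log2 change of all genes tested was -0.56 and 3390 genes were called lower. How many genes were apart on that scale was not counted, so the separation of gys1 has no background share. In the fit over all genes the log2 change of gys1 was -0.43 ± 0.16 on full counts (edgeR adjusted p = 0.167) and -0.52 on thinned counts (edgeR adjusted p = 0.208), so gys1 was not called.

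Of the 7 genes that rose, 4 had no overlap between the genotypes in CPM, and 3 of these none in thinned counts either. Over all 11118 genes tested, 19 (0.171%) had every knockout liver above every wild-type liver on full counts. The 7 were called on this same difference, so the separation is no further support. Of the 4, tm9sf4 and ENSDARG00000092578 reached 10 counts in no wild-type liver and were tested only through knockout livers. The first of the 4, tm9sf4, encodes a multi-spanning membrane protein of the TM9 family. It was at 0.882 to 3.63 CPM in wild-type livers, with a median of 2.2, and at 5.86 to 18.3 CPM in knockout livers, with a median of 9.03. The log2 change was 2.25 ± 0.32 (edgeR adjusted p = 0.00296) and 2.37 ± 0.34 on thinned counts (edgeR adjusted p = 0.00161). Every knockout liver exceeded every wild-type liver, but the wild-type counts were only 2 to 8 a library. After thinning the counts were 1 to 6 against 8 to 21, too few for the filter to keep the gene.

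For rmdn1, which encodes a regulator of microtubule dynamics, the lowest, median and highest values were 2.47, 8.23 and 22.4 CPM in wild-type livers and 31.1, 46.6 and 94.5 CPM in knockout livers. Thinned counts of rmdn1 were 4 to 36 and 38 to 147. The log2 change was 2.32 ± 0.35 (edgeR adjusted p = 0.00688) and 2.33 ± 0.35 on thinned counts (edgeR adjusted p = 0.00233). The groups were apart on either count, by the narrow margin of 36 against 38 thinned counts, and knockout liver 1 was the highest.

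The largest change among the called genes was that of ENSDARG00000092578, for which no role is given here. Its counts in wild-type livers 1 to 8 were 0, 0, 0, 4, 5, 1, 1 and 1. In knockout livers 1 to 8 they were 28, 98, 36, 136, 95, 184, 146 and 54. Near absence in wild type was thus set against counts in every knockout liver, and the ranges stayed apart after thinning, at 0 to 4 against 5 to 69. The log2 change was 5.21 ± 0.75 (edgeR adjusted p = 0.00803) and 5.11 ± 0.66 on thinned counts (edgeR adjusted p = 0.00161). The values also differed with depth among knockout livers: the deepest, knockout livers 3 and 1 with 15351773 and 8810916 counts, had the lowest levels, 3.65 and 3.20 CPM, and knockout livers 6 and 7 with 4249952 and 3216183 counts the highest, 56.9 and 45.3 CPM. Knockout livers 2, 4, 5 and 8 were at 19.7, 26.6, 23.2 and 25.8 CPM, and liver 8 was the shallowest of the knockout livers, at 2562717 counts. The part of depth in these levels was not tested.

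The fourth, si:ch1073-416d2.3, was at 12.1 to 60.0 CPM in wild-type livers, with a median of 26.6, and at 62.5 to 142 CPM in knockout livers, with a median of 103. Its log2 change was 1.65 ± 0.29 (edgeR adjusted p = 0.0200), and 1.68 ± 0.29 on thinned counts (edgeR adjusted p = 0.00915). On full counts the groups were apart; on thinned counts the values were 17 to 107 and 63 to 225, and separation holds only once the TMM factors are applied.

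The other called genes overlapped between genotypes. The tight-junction gene cldn2, whose protein forms a paracellular channel for cations and water, averaged 15.7 ± 4.37 CPM over wild-type and 35.3 ± 9.77 CPM over knockout livers (SD, n = 8 each; log2 change 1.17 ± 0.21, edgeR adjusted p = 0.0209), and its highest wild-type liver (22.7 CPM) lay just above the lowest knockout liver (22.5 CPM). For ppdpfb, a zebrafish copy of the pancreatic progenitor cell differentiation and proliferation factor gene, the means were 124 ± 60.5 and 412 ± 191 CPM (SD, n = 8 each; log2 change 1.73 ± 0.32, edgeR adjusted p = 0.0296). For rgrb, which encodes an opsin of the retinal G protein-coupled receptor type, they were 18.03 ± 8.90 and 42.0 ± 9.08 CPM (SD, n = 8 each; log2 change 1.23 ± 0.24, edgeR adjusted p = 0.0355). The overlap of rgrb came from wild-type liver 8 alone, at 38.4 CPM, the next wild-type value being 19.1 CPM. On thinned counts the log2 changes of cldn2, ppdpfb and rgrb were 1.13, 1.71 and 1.30.

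**Figure D2:**
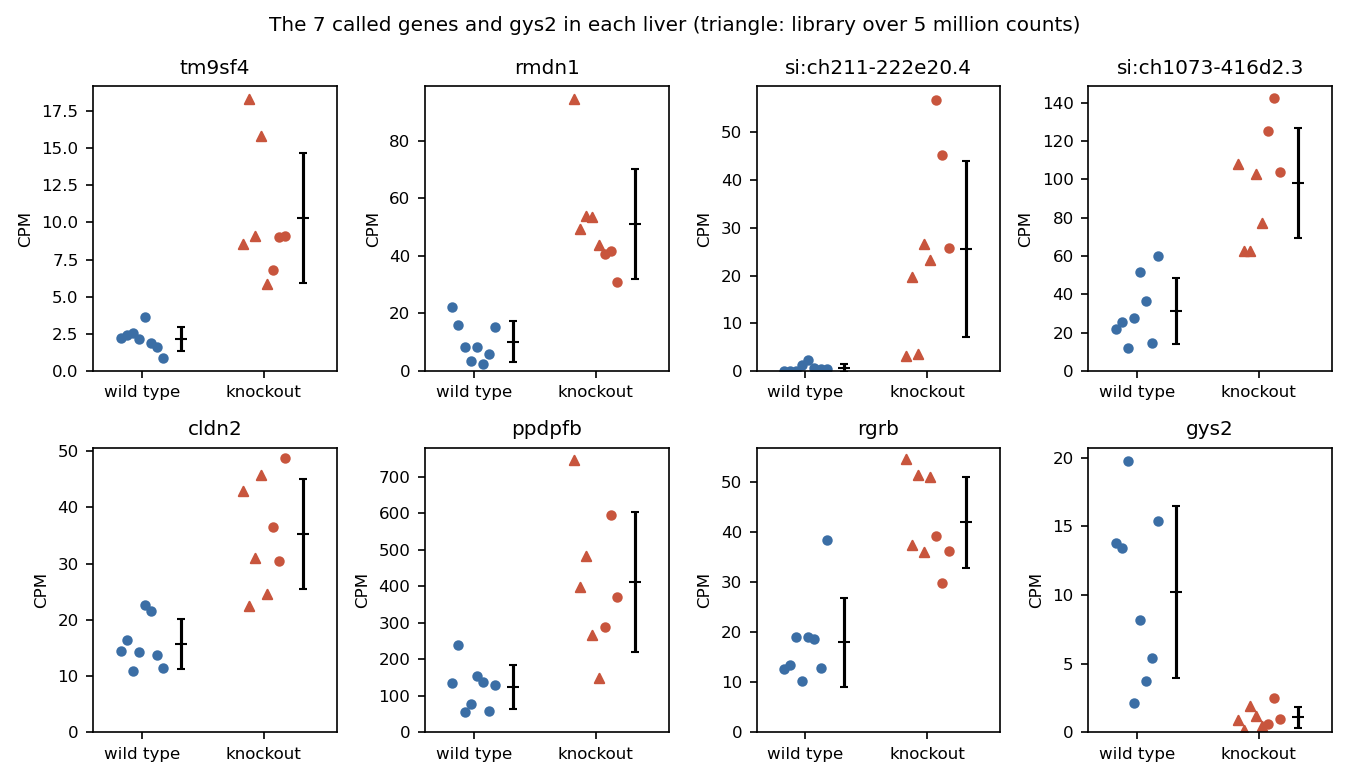
CPM of the 7 called genes and of gys2 in each of the 16 livers, 1 point per liver, with mean and SD over 8 livers as a bar beside the points; each panel has its own linear axis from 0. Triangles are libraries over 5000000 counts, all of them knockout. In tm9sf4, rmdn1, ENSDARG00000092578 and si:ch1073-416d2.3 every knockout liver is above every wild-type liver.

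The calls rested on depth and on single livers to different degrees. In 20 thinned draws 6 to 12 genes were called. The genes tm9sf4, rmdn1, ENSDARG00000092578, si:ch1073-416d2.3 and ppdpfb were called in all 20 draws, cldn2 in 17 and rgrb in 8. With 1 liver left out at a time, tm9sf4, rmdn1 and ENSDARG00000092578 were called in each of 16 fits, si:ch1073-416d2.3 in 12, cldn2 in 10, ppdpfb in 8 and rgrb in 7. Of these, tm9sf4 and ENSDARG00000092578 reached 10 counts in no wild-type liver and in all 8 knockout livers, so they were tested only through the group in which they are high, and their counts of fits say nothing of stability. The number of calls ran from 3 to 47 over these 16 fits, with 47, 33 and 16 calls when wild-type liver 5, 2 or 3 was left out and 14, 12 and 11 when knockout liver 1, 5 or 8 was. It was 3 without wild-type liver 1, 4 or 7 or without knockout liver 6.

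Without the 5 knockout livers over 5000000 counts, 8 wild-type livers stood against 3 knockout livers and only ENSDARG00000092578 was called (log2 change 5.94, edgeR adjusted p = 2.35e-07); its fitted change depends on the prior count, since 3 wild-type livers were at 0. The sizes of the other changes stayed near those of the whole set: 1.91 for tm9sf4 (edgeR adjusted p = 0.304), 1.87 for rmdn1 (adjusted p = 0.304), 1.98 for si:ch1073-416d2.3 (adjusted p = 0.0571), 1.29 for cldn2 (adjusted p = 0.167), 1.74 for ppdpfb (adjusted p = 0.167) and 0.96 for rgrb (adjusted p = 0.789), all edgeR log2 changes. Applying the filter again after thinning left 7572 genes and 2 calls, rmdn1 (edgeR adjusted p = 0.00663) and si:ch1073-416d2.3 (edgeR adjusted p = 0.0304); tm9sf4 and ENSDARG00000092578 were no longer tested. Of the 11118 genes tested on full counts, 1395 had 10 counts in fewer than 4 wild-type livers. Only 8 had them in fewer than 4 knockout livers, so genes short of counts in a genotype were mostly short in wild type.

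At an adjusted p under 0.10, 104 genes passed on full counts, 82 higher (0.738%) and 22 lower (0.198%) in knockout (0.935% of genes tested together), and 27 on thinned counts, 25 higher (0.225%) and 2 lower (0.018%; 0.243% together). Of the 27, 26 were among the 104. The log2 changes themselves moved little: 10210 genes (91.8%) had the same sign on full and thinned counts, and the correlation of the log2 changes across the 11118 genes, which come from the same reads and are not replicates, was 0.957. All 8 knockout livers exceeded all 8 wild-type livers in 19 genes (0.171%) on full counts and in 19 on thinned counts (0.171%), 12 of them shared. All 8 lay below all 8 wild-type livers in 11 genes (0.0989%) on full and 3 (0.027%) on thinned counts, 1 of them shared. Both full and thinned values were scaled by TMM here. The thinned ranges given for single genes were not, so these shares are no background for them.

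Genes between an adjusted p of 0.05 and 0.10 on full counts are given as values, since they passed no call. Among those higher in knockout, pklr, the liver and red cell pyruvate kinase that ends glycolysis, was at 100, 243 and 383 CPM (lowest, median and highest) in wild type and at 358, 738 and 3609 CPM in knockout. Its log2 change was 2.25 ± 0.45 (edgeR adjusted p = 0.0605) and 2.21 on thinned counts (edgeR adjusted p = 0.0817); knockout liver 1 held the 3609 CPM, and without that liver the log2 change was 1.69 and pklr was called (edgeR adjusted p = 0.0337). For fads2, a desaturase of polyunsaturated fatty acid synthesis, the means were 602 ± 233 and 1406 ± 487 CPM (SD, n = 8 each; log2 change 1.22 ± 0.26, edgeR adjusted p = 0.0507; 1.20 on thinned counts, adjusted p = 0.0565).

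The SUMO gene sumo2b ranged from 10.5 to 25.1 CPM over wild-type and from 27.8 to 44.3 CPM over knockout livers (log2 change 0.93 ± 0.19, edgeR adjusted p = 0.0507; 0.99 on thinned counts, adjusted p = 0.0749), without overlap. The proteasome-associated deubiquitinase uchl5 had a log2 change of 1.42 ± 0.29 (edgeR adjusted p = 0.0507; 1.43 thinned, adjusted p = 0.0817) and the ribosomal protein gene rps27.2 one of 1.04 ± 0.23 (adjusted p = 0.0605; 1.03 thinned, adjusted p = 0.0817). For vps28 of the ESCRT-I complex it was 0.96 ± 0.21 (edgeR adjusted p = 0.0605), but 0.87 with an adjusted p of 0.144 on thinned counts. Every knockout liver was above every wild-type liver for rps27.2, at 190 to 567 CPM against 583 to 1145 CPM. MYG1, whose product is an exonuclease, and pbdc1 were also apart on full counts, with log2 changes of 1.32 ± 0.27 and 0.92 ± 0.19 (edgeR adjusted p = 0.0507 for each). On thinned counts their log2 changes were 1.21 and 0.88 (edgeR adjusted p = 0.0991 and 0.092). Thinned counts before TMM overlapped between genotypes for sumo2b, rps27.2, MYG1 and pbdc1. In wild-type and knockout livers they were 24 to 48 and 31 to 68 for sumo2b, and 427 to 1038 and 885 to 1394 for rps27.2. They were 4 to 17 in wild-type and 10 to 26 in knockout livers for MYG1, and 36 to 64 and 46 to 105 for pbdc1. These genes were chosen by p on the same difference, so their separation in CPM is no further support.

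Among genes lower in knockout, none passed at 0.05. The gene galnt13, which starts O-linked glycosylation, averaged 19.2 ± 4.89 CPM over wild-type and 9.39 ± 2.74 CPM over knockout livers (SD, n = 8 each; log2 change -1.05 ± 0.22, edgeR adjusted p = 0.0605; -0.97 on thinned counts, adjusted p = 0.129). The small GTPase gene mras had a log2 change of -0.88 ± 0.21 (edgeR adjusted p = 0.0823; -0.88 thinned, adjusted p = 0.131) and the secreted semaphorin gene sema3fa -0.88 ± 0.22 (adjusted p = 0.0845; -0.98 thinned, adjusted p = 0.129). CU657925.1 had the smallest p among the lower genes, with 5.49 to 12.3 CPM over wild-type and 1.37 to 5.27 CPM over knockout livers (log2 change -1.43 ± 0.30, edgeR adjusted p = 0.0507; -1.26 on thinned counts, adjusted p = 0.140). Of the 22 lower genes past 0.10, 10 carry an accession-type name of that kind; genes so named had a median log2 change of -0.28 over 1087 genes tested, against 0.08 over 8846 genes with a gene name and -0.15 over 1185 with a clone name.

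The log2 change differed with abundance. Over genes of mean 3 to 10 CPM the median log2 change was -0.05 (5201 genes, 45.3% higher in knockout), over 10 to 30 CPM it was -0.01 (3740 genes), over 30 to 100 CPM 0.17 (1365 genes) and over 100 to 300 CPM 0.48 (332 genes, 90.7% higher). Above 1000 CPM it was 0.51 and 99.4% of 155 genes were higher. Thinned counts gave nearly the same values, from -0.05 at 3 to 10 CPM to 0.50 above 1000 CPM. Scaled to library totals in place of TMM, the same bins ran from -0.63 to -0.04, the median of all genes was -0.56 and the split of calls turned from 7 higher and 0 lower to 18 higher and 3390 lower. A list of abundant genes therefore has a positive median on the TMM scale, and whether abundant genes were higher or scarce genes lower cannot be told apart from relative counts.

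**Figure D3:**
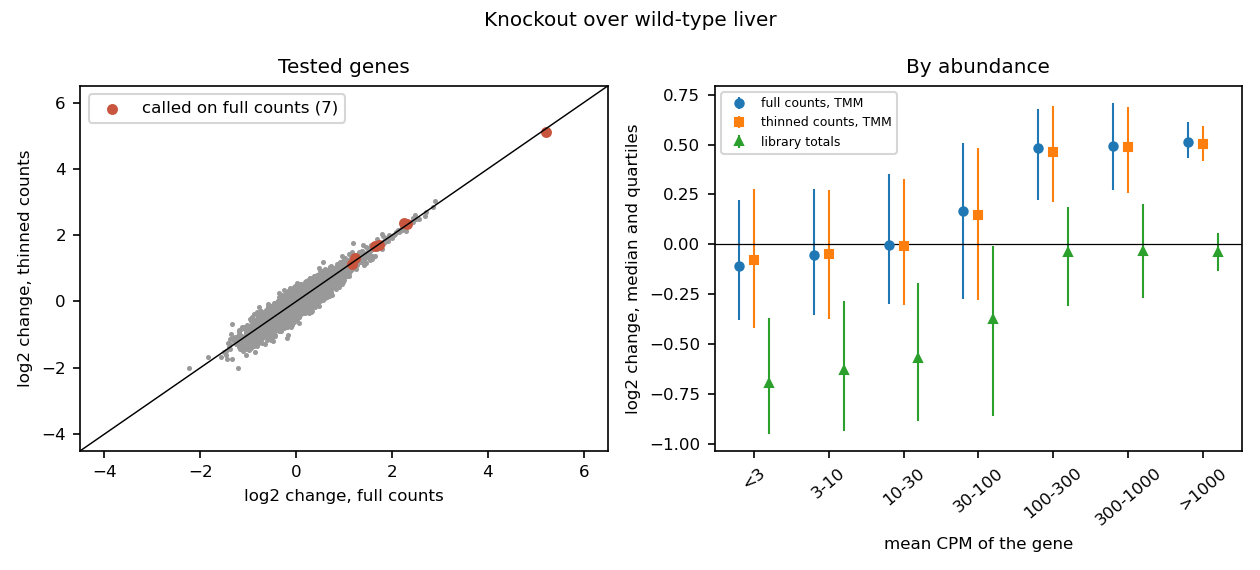
Left, the log2 change (knockout over wild type) of each of the 11118 tested genes on thinned against full counts, with the line of equality and the 7 genes called on full counts in red. Right, the median and quartiles of the log2 change by mean CPM of the gene for full counts, thinned counts and scaling to library totals. Points scatter about the line at left (correlation 0.957). At right the medians are higher above 100 CPM than under 30 CPM in all 3 settings.

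None of the 40 gene lists examined held a call, against 0.063% of all genes tested, a share at which a list of this size would seldom hold one. Over all 11118 genes tested, 51.0% were higher in knockout, and 1277 were higher at an unadjusted p under 0.05. Of 21 glycogen genes tested, 13 were higher and 8 lower (median log2 change 0.10; 0.16 on thinned counts; 0.01 over all genes tested), and the median ran from 0.00 without wild-type liver 4 to 0.20 with 1 liver left out. Of 4 genes tested for subunits of phosphorylase kinase, which activates glycogen phosphorylase, 3 were lower and 1 higher, none of them called: phka2 had a log2 change of -0.51 ± 0.17 (edgeR adjusted p = 0.144), phkg1a -0.53 ± 0.20 (adjusted p = 0.171). The debranching enzyme copies differed in sign, with aglb at -0.64 ± 0.26 (edgeR adjusted p = 0.192) and agla at 0.77 ± 0.34 (adjusted p = 0.224; agla and pygl were chosen after their values were seen). Liver glycogen phosphorylase, pygl, was at 0.62 ± 0.31 (edgeR adjusted p = 0.258).

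Of 28 glycolysis genes 17 were higher and 11 lower (median 0.23; 0.17 thinned; 0.11 without knockout liver 6). Besides pklr, the glycolytic enzyme genes pgk1 and tpi1b had log2 changes of 0.66 ± 0.24 and 0.83 ± 0.30 (edgeR adjusted p = 0.162 each). Of 10 glucose-producing genes 9 were higher (median 0.70; 0.73 thinned; 0.41 without knockout liver 1). The glucose-6-phosphatase gene g6pca.2, whose product makes the free glucose that leaves the liver, ranged from 42.3 to 239 CPM over wild-type and from 176 to 457 CPM over knockout livers (log2 change 1.27 ± 0.32, edgeR adjusted p = 0.0845; 1.21 on thinned counts, adjusted p = 0.128); reads of g6pca.2 could be split with near-identical copies in counting. The hepatocyte glucose carrier slc2a2 had a log2 change of 0.70 ± 0.27 (edgeR adjusted p = 0.174).

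Lipid synthesis lists had the highest medians, and that of fatty acid synthesis rested on few livers. All 23 cholesterol synthesis genes tested were higher (median 1.32; 1.31 thinned), with 6 at an unadjusted p under 0.05, against 1277 of 11118 over all genes tested. The lowest adjusted p was that of the sterol regulator srebf2 (log2 change 0.93 ± 0.30, edgeR adjusted p = 0.131). Of 17 fatty acid synthesis genes 11 were higher (median 0.98; 0.83 thinned; 0.42 without knockout liver 1). The fatty acid synthase gene fasn was at 30.1 to 189 CPM in wild-type livers, while knockout livers 1 and 2 held 2508 and 1696 CPM and the other 6 knockout livers 19.2 to 249 CPM. Its log2 change of 2.71 ± 1.02 (edgeR adjusted p = 0.185) was 1.85 without knockout liver 1 and -0.25 without the 5 deepest knockout livers. The citrate lyase gene aclya and the pentose phosphate gene pgd had their highest values in the same 2 livers, at 687 and 433 CPM for aclya and 707 and 305 CPM for pgd, against wild-type maxima of 67.9 and 70.5 CPM.

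Lists of protein synthesis, folding and breakdown lay above the median of all genes. All 79 cytosolic ribosomal protein genes were higher, 64 of them at an unadjusted p under 0.05 (median 0.52; 0.50 thinned), at a median abundance of 1876 CPM, where nearly all genes were higher. Among the 155 genes above 1000 CPM, 100 were higher at an unadjusted p under 0.05. Many of the ribosomal genes are themselves among these 155, so the 155 are no separate background for the list. Of 25 cytosolic chaperone genes 22 were higher (median 0.63; 0.58 thinned); the constitutive HSP70 gene hspa8 averaged 501 ± 131 CPM over wild-type and 889 ± 161 CPM over knockout livers (SD, n = 8 each; log2 change 0.83 ± 0.20, edgeR adjusted p = 0.0845), and the TRiC chaperonin subunits cct3 and cct6a had log2 changes of 0.85 and 0.75 (adjusted p = 0.0885 each). Of 46 proteasome genes 41 were higher (median 0.88; 0.79 thinned; 0.50 without knockout liver 1), among them PSMA2 (log2 change 1.06 ± 0.24, edgeR adjusted p = 0.0605) and psmc3 (0.91 ± 0.23, adjusted p = 0.0845). All 18 tRNA synthetase genes tested were higher on full counts and 17 on thinned counts (median 0.59; 0.61 thinned).

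Energy genes were likewise higher on balance on the TMM scale. Scaled to library totals, the median was 0.01 for nuclear and 0.03 for mitochondrially encoded genes of the respiratory chain, against -0.56 over all genes. The mitochondrially encoded genes had a median abundance of 1952 CPM, where nearly all genes were higher on the TMM scale. Genes that abundant include many of these genes themselves and are no separate background for them. Of 84 nuclear genes of the respiratory chain 82 were higher (median 0.51; 0.50 thinned), and atp5mc3b, a subunit of ATP synthase, was apart at 326 to 846 CPM against 879 to 1135 CPM (log2 change 0.73 ± 0.20, edgeR adjusted p = 0.104). Of 13 mitochondrially encoded genes 11 were higher (median 0.57; 0.54 thinned), with mt-nd6 at 0.93 ± 0.22 (edgeR adjusted p = 0.0834) and mt-nd3 at 0.87 ± 0.21 (adjusted p = 0.0845). A complex I gene beside them had the opposite sign: mt-nd4l ranged from 53.6 to 463 CPM over wild-type and from 44.3 to 106 CPM over knockout livers (log2 change -1.41 ± 0.36, edgeR adjusted p = 0.0877). The share of counts on mitochondrially encoded genes was 3.52% ± 0.913 in wild-type and 3.67% ± 0.701 in knockout livers (SD, n = 8 each; exact permutation p = 0.731).

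Of the 40 lists, microtubule motors (11 of 29 higher, median -0.10; -0.06 thinned), circadian clock genes (9 of 27, -0.14; -0.12 thinned) and replication and mitosis genes (10 of 29, -0.16; -0.17 thinned) had negative medians on full counts. Chromatin genes were even, with 46 of 90 higher (median 0.00; -0.02 thinned). Members of these lists were of low abundance, with a median of 7.18 to 9.07 CPM. Other lists of like abundance had positive medians. Mediator and RNA polymerase II genes were at a median of 6.25 CPM (median log2 change 0.27). Interferon and antigen presentation genes were at 9.49 CPM (0.21) and nuclear pore genes at 9.76 CPM (0.19). The part of abundance in the list medians was not tested.

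**Figure D4:**
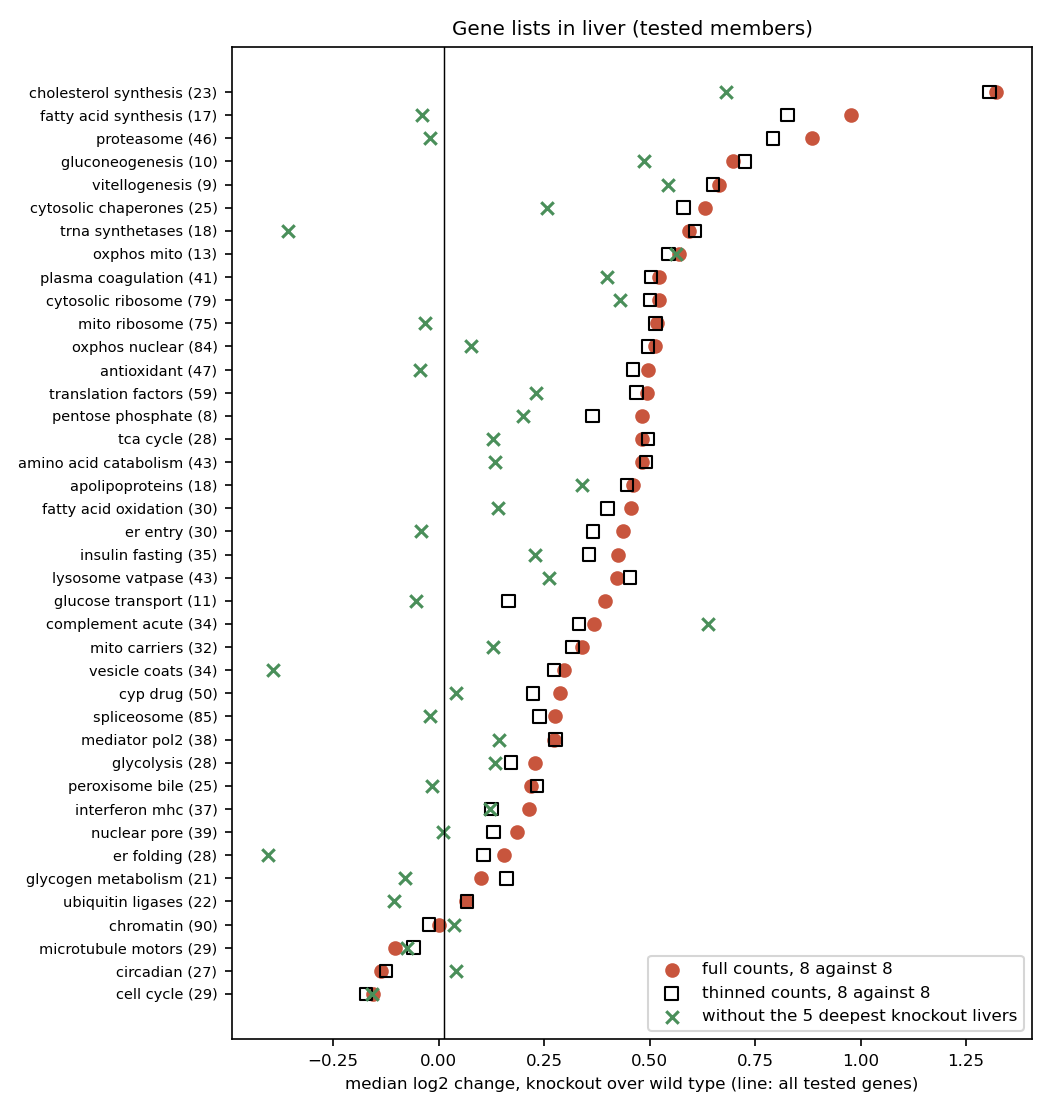
Median log2 change (knockout over wild type) of the tested members of each of 40 gene lists, with the number of members in brackets, on full counts (red circles), thinned counts (open squares) and full counts without the 5 deepest knockout livers (green crosses); the vertical line is the median of all tested genes. Circles and squares lie close together, while crosses lie well to the left for most lists, among them the proteasome (0.88 and 0.79 against -0.02); the crosses set knockout replicates 6 to 8 against all 8 wild-type livers.

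Leaving out the 5 knockout livers over 5000000 counts moved the list medians more than thinning did. The proteasome median was 0.79 on thinned counts and -0.02 without those livers. The nuclear respiratory chain list went from 0.51 to 0.08, mitochondrial ribosomal proteins from 0.52 to -0.03, tRNA synthetases from 0.59 to -0.36, ER folding genes from 0.16 to -0.40 and fatty acid synthesis from 0.98 to -0.04. Mitochondrially encoded genes went from 0.57 to 0.56, cytosolic ribosomal proteins from 0.52 to 0.43 and vitellogenesis from 0.67 to 0.54. Cholesterol synthesis went from 1.32 to 0.68, but the 3 livers left were at list levels (median log2 difference from the wild-type mean) of 2.61, -1.44 and -1.54, so 1 liver carries that value. The median of all genes was -0.03 in that fit.

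This removal is not balanced: the 5 livers are knockout replicates 1 to 5, all 8 wild-type livers stay, and list levels differed between the same replicate numbers in wild type. The level of a list in a liver was taken as the median over its members of log2(CPM + 0.5) minus the wild-type mean. The mean proteasome level was 0.25 in wild-type livers 1 to 5 and -0.36 in wild-type livers 6 to 8. Set against wild-type livers of the same numbers, knockout livers 1 to 5 were higher by 0.79 and knockout livers 6 to 8 by 0.46. For the nuclear respiratory chain these differences were 0.52 and 0.47, for ribosomal proteins 0.58 and 0.42, for tRNA synthetases 0.52 and 0.28 and for chaperones 0.72 and 0.26. Whether the lower medians without the deep livers go with depth or with the choice of wild-type livers was not tested. For ER folding genes the differences were 0.32 and -0.06, and for mitochondrial ribosomal proteins 0.64 and 0.16. For cholesterol synthesis they were 0.84 and 1.06, and knockout liver 6, at a level of 2.61, carried the second. Wild-type means of that list were 0.87 in livers 1 to 5 and -1.19 in livers 6 to 8. What the replicate numbers stand for is not known here, and these values, chosen after seeing the data, carry no test.

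Read by liver, proteasome levels were -0.62 to 0.45 in wild-type livers, -0.01 to 2.14 in the 5 knockout livers over 5000000 counts and -0.01 to 0.18 in the other 3. Respiratory chain levels were -0.62 to 0.56, 0.15 to 1.38 and -0.06 to 0.33 in the same order. In these lists the 3 shallower knockout livers lay inside the wild-type range, and knockout liver 1 was the highest of all. Chaperone levels were -0.54 to 0.31 in wild type, 0.31 to 1.04 in the deep and 0.15 to 0.32 in the shallower knockout livers, and ribosomal protein levels were -0.65 to 0.51, -0.24 to 1.09 and 0.45 to 0.50. Microtubule motors were at -0.15 to 0.14, -0.38 to -0.19 and -0.09 to 0.05, so that the 5 deep knockout livers lay below all 8 wild-type livers. Depth and genotype cannot be told apart in these levels, since no wild-type liver was over 5000000 counts.

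**Figure D5:**
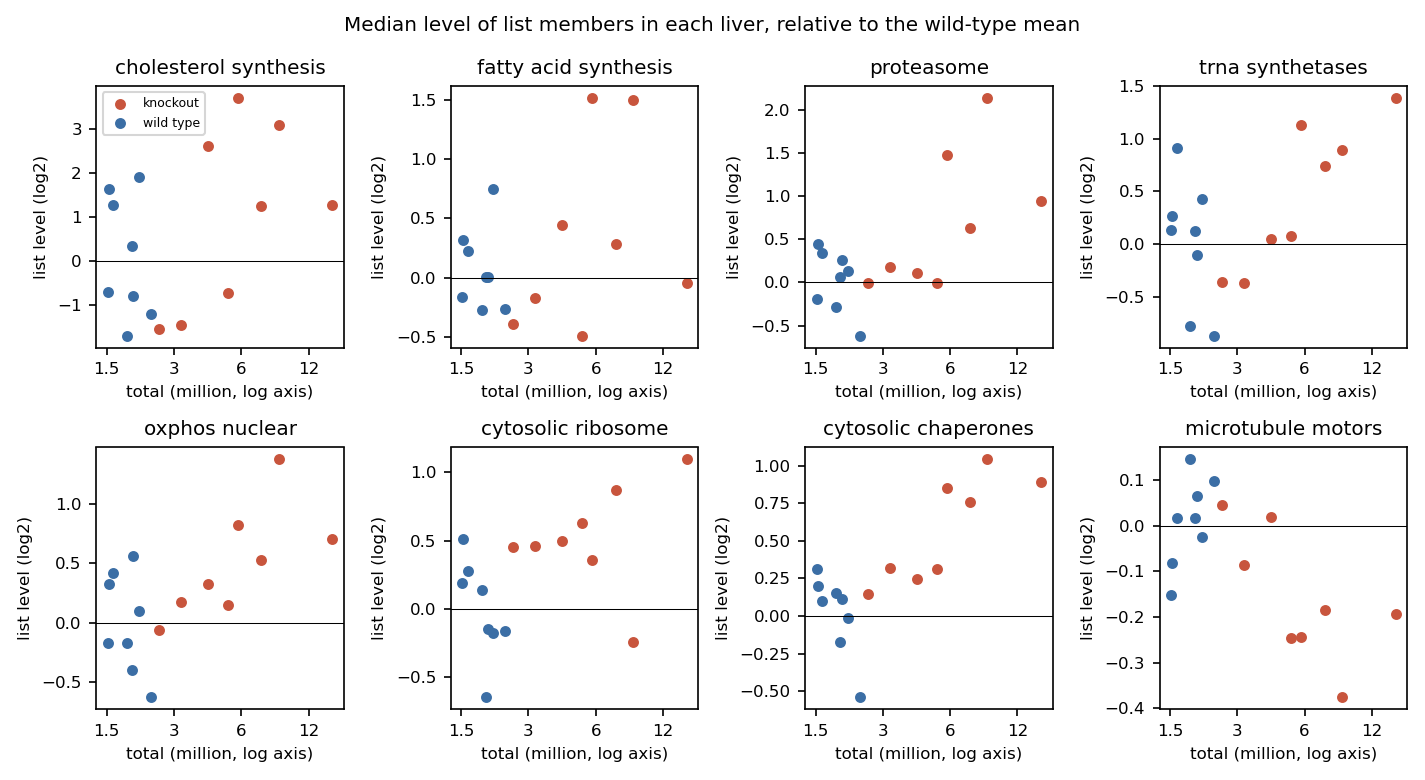
Level of 8 gene lists in each of the 16 livers (median over members of log2(CPM + 0.5) minus the wild-type mean) against the library total on a log axis. For the proteasome and nuclear respiratory chain lists the 3 knockout livers under 5000000 counts lie within the wild-type range and the highest values are in deeper knockout livers.

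Marker sums of other cell types were below those of hepatocytes, and some differed between genotypes. Hepatocyte markers, all 12 of them with enough counts to test, summed to 25870 to 103700 CPM of library totals in wild-type and 28170 to 103600 CPM in knockout livers (exact permutation p = 0.972), in keeping with the tissue label. Skeletal muscle markers (11 of 13 with enough counts) summed to 1889 to 2671 CPM in wild-type and 1296 to 1735 CPM in knockout livers, with no overlap (exact permutation p = 0.000155). Ovary and oocyte markers were at 1430 to 1919 and 1058 to 1424 CPM, also apart (p = 0.000155, exact permutation), and 1 gene, h1m, made up most of that sum, with mean levels of 1452 and 1143 CPM. Endothelial markers were at 52.1 to 118 and 28.1 to 54.6 CPM (exact permutation p = 0.000622), thrombocyte markers at 38.3 to 69.2 and 17.3 to 45.1 CPM (exact permutation p = 0.000932), stellate and fibroblast markers at 62.2 to 138 and 48.1 to 82.1 CPM (exact permutation p = 0.00497) and kidney markers at 11.2 to 31.6 and 8.0 to 23.95 CPM (exact permutation p = 0.0162). The other 9 marker lists, hepatocytes included, had an exact permutation p over 0.05. Some of these sums also came mostly from 1 gene. That gene was lect2l for neutrophils (wild-type mean 32.3 CPM, knockout mean 132 CPM) and apoa4b.1 for intestine (617 and 778 CPM). For T and NK cells it was cd3eap (83.2 and 78.5 CPM), which is not particular to these cells, so that sum does not measure them. The remaining markers of these lists had lower means in knockout livers, except cd8a, anpepb and fabp6, and were not tested apart from the sums. Exocrine pancreas markers ranged widely in either genotype, from 58.7 to 2396 and from 82.9 to 3606 CPM (exact permutation p = 0.384). None of the markers was at 0 in all 16 livers. On this same scale of library totals the median log2 change was -0.56 over all genes tested and -0.63 over genes of 3 to 10 CPM. The log2 differences of the sums were -0.746 for endothelial, -0.799 for thrombocyte, -0.703 for kidney and -0.567 for stellate and fibroblast markers. Whether the lower sums go with the scale or with cell content was not tested. Genes of 300 to 1000 CPM and genes above 1000 CPM each had a median log2 change of -0.04. Muscle and ovary markers, whose sums came mostly from abundant genes such as ckma, ckmb and h1m, were at -0.515 and -0.364. The part of these cells in the results above was not tested. The 15 marker p-values, a family of 15 comparisons, are unadjusted.

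By gene order in the RefSeq annotation of the GRCz12tu assembly, 29 of the 60 nearest protein-coding genes were matched by symbol and tested; 19 were higher and 10 lower in knockout liver, 4 had an unadjusted p under 0.05, and none was called (lowest edgeR adjusted p = 0.137). Over all genes tested 19.9% had an unadjusted p under 0.05 and 0.063% were called, so these counts show nothing particular to the locus. Muscle of the same genotypes, examined after the liver calls were known, had 0 calls among 12894 genes tested (0% called; 606 at an unadjusted p under 0.05 in edgeR; no other tool was run there). Of the 7 genes called in liver, rmdn1 had a log2 change of 0.07 ± 0.39 in muscle (edgeR adjusted p = 0.994) and ppdpfb -0.32 ± 0.18 (adjusted p = 0.956), and the other 5 did not pass the filter in muscle. The difference between the tissues was not tested here.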

How the data were processed

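Liver and muscle of wild-type and gys2 knockout zebrafish were measured by 3′ mRNA sequencing, in 4 groups of 8 libraries. The deposited values are raw counts, whole numbers listed by gene symbol. Tools in the submitters' processing notes are Salmon 1.10.2, BWA 0.7.17-r1188 and fastp 0.23.4, beside the build GRCz11, without their roles. The sources used here do not give the annotation, the use of strand or molecular identifiers, so copies and overlapping genes may share reads, and counting errors cover counting alone.

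Genes with at least 10 counts in 8 of 16 livers were tested with edgeR 4.0.16 (robust quasi-likelihood fit with TMM scaling and a single genotype term, R 4.3.3); a call needed a Benjamini-Hochberg adjusted p below 0.05. The same genes were tested on counts drawn without replacement to 1514099 per liver, in 20 draws, the first of which is the one reported. Detection at matched depth is the hypergeometric expectation. Single values were compared by exact two-sided permutation tests of 8 against 8 (12870 splits). The labels number the libraries as biological replicates, which are taken here as separate fish. Each mean ± SD is over 8 livers; ± after a log2 change is its SE. Alternatives were DESeq2 1.42.0, limma-voom (limma 3.58.1), other scalings and filters, vitellogenins left out, a replicate block, libraries over 5000000 counts left out, and each liver left out.

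The genes named are gys2, gys1, the called genes, up to 12 genes in each direction by p with an adjusted p under 0.10, a mean of at least 5 CPM and all 8 knockout livers beyond the wild-type median on full and thinned counts, and, of every list, up to 4 members ranked by p. The comparison, the gene lists and the markers were chosen with earlier results of these data known. Sequences were not used here. Not every gene that the rule names is described.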

Additional observations from a re-analysis of the deposited data

Results flagged for a closer look

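For 8 of 76 groups of 8 livers examined, a single liver stood far from the rest by Dixon's criterion for the gap to the nearest liver; chance gives about 5% of such groups. In knockout liver 1, rmdn1 was at 94.5 CPM, the next knockout liver being at 53.7 CPM, and pklr was at 3609 CPM against a next value of 1470 CPM. In wild-type liver 8, rgrb was at 38.4 CPM against a next value of 19.1 CPM. The gene galnt13 was at 8.29 CPM in wild-type liver 3, below the next at 16.1 CPM, and at 15.3 CPM in knockout liver 8, above the next at 10.6 CPM. The mitochondrial gene mt-nd4l was at 463 CPM in wild-type liver 4, the next being 223 CPM, and at 106 CPM in knockout liver 5, the next being 63.0 CPM. The share of counts on mitochondrially encoded genes was 5.59% in wild-type liver 5 and at most 3.64% in the other wild-type livers.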

How the results depend on the processing

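The count of 7 called genes moved with most choices. It was 2 with the filter applied again after thinning, 1 without libraries over 5000000 counts, 313 with DESeq2, 82 with limma-voom, 3408 with library totals, 99 without a filter, 48 with at least 50 counts in 8 livers, and 12 in the highest of 20 thinned draws. Chosen after seeing the data, DESeq2 and limma-voom on thinned counts gave 140 and 45 (7975 genes had no adjusted p in that DESeq2 test, 1294 on full counts). With 1 liver left out it ran from 3 to 47. With the replicate number as a block 17 genes were called; only 4 of 8 same-numbered pairs had correlated deviations above 0.1 (-0.27 to 0.41), and 2 wild-type and 1 knockout livers correlated best with their own number, so the numbers were not taken to pair the fish.

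The difference in genes at matched depth (knockout minus wild type) was -1958 at 5 counts. It was -1842 at 10 counts (exact permutation p = 0.000466) and -1082 at 1 count (exact permutation p = 0.0502). With vitellogenin genes left out and depth matched on the other genes, it was -1526 at 5 counts (exact permutation p = 0.000622). With all genes and 1 liver left out, it ran from -2121 to -1732 at 5 counts. The share of counts in the 100 most abundant genes was 6.20 percentage points higher in knockout livers (exact permutation p = 0.0417), 6.72 for the 10 most abundant (p = 0.0642, exact permutation), and 5.27 to 8.08 with 1 liver left out, where 11 of 16 fits lost the call (exact permutation p = 0.0505 to 0.0782). The differences in mean log2 level with 1 liver left out were -2.86 to -2.44 for gys2 and -0.45 to -0.38 for gys1; pairing by number left them past the threshold (exact sign-flip permutation p = 0.00781 each).

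With library totals in place of TMM the log2 changes of apoc1 (-0.0486), cyp2ad3 (-0.0185), tnpo2 (-0.0173), rpia (-0.123) and ubr7 (-0.00831) had the opposite sign, and without libraries over 5000000 counts those of sec61b (-0.0330), canx (-0.0262), aclya (-0.0880), fasn (-0.252), tmed9 (-0.205) and sar1b (-0.248); the cause was not tested. By abundance, library totals gave medians of -0.69, -0.63, -0.57, -0.37, -0.04, -0.04 and -0.04 from the scarcest to the most abundant genes, and DESeq2 size factors -0.04 at 10 to 30 CPM.

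Depth limits the wild-type livers most: at 1514099 counts a gene of 5 CPM has few counts.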
